A study of Mus musculus with 6 samples.

Results

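The 141 ribosomal protein genes described here were taken from 22369 genes measured by RNA-seq in 3 lines of immortalized mouse embryonic fibroblasts (iMEF). They were chosen by symbol alone (Rpl or Rps followed by a digit, without the Rps6k kinases, plus Rplp0, Rplp1, Rplp2 and Rpsa). Of them, 46 encode proteins of the large subunit and 31 proteins of the small subunit, together 77 core genes. Another 55 are copies, whose symbols carry the ending -ps that marks a pseudogene although the deposited table lists them among protein-coding genes. There are 8 paralogs, separate genes that encode a variant of a core protein. The last, Rps19bp1, encodes a protein that binds Rps19 and is not a ribosomal protein.

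The lines were Nrdc+/+ iMEF, Nrdc-/- iMEF, which lack the metalloendopeptidase nardilysin, and Nrdc-/-WT iMEF, which are Nrdc-/- cells infected with a lentivirus carrying wild-type Nrdc. All were of the C57BL/6 strain and were harvested while growing asynchronously, and each gave 2 libraries, described as biological replicates. Nrdc+/+ cells received no virus, and no Nrdc-/- library with an empty virus was analysed here. Genotype and the separate immortalization of the Nrdc+/+ and Nrdc-/- cells cannot be told apart, and p-values measure the spread between 2 libraries of a line.

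Ribosomes are built from rRNA and one copy of most ribosomal proteins, and growing cells spend a large part of their mRNA on them. Ribosomal protein mRNAs are short, abundant and stable, and most begin with a run of pyrimidines (the 5-prime TOP motif) through which mTORC1 controls their translation. The genes lie scattered over the genome, and retrotransposition has left most of them with many intron-less copies.

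The libraries held 16385565 to 19764315 reads over the listed genes. The targeted gene, listed under its older symbol Nrd1, stood at 27.9 and 28.9 RPKM (reads scaled to annotated exon length and library size) in Nrdc+/+, 1.53 and 1.51 in Nrdc-/- and 5.89 and 5.40 in Nrdc-/-WT iMEF. The order of mRNA levels followed the labels, and the virus line stayed below Nrdc+/+. For the protein, the paper reports similar levels in Nrdc-/-WT and wild-type iMEF on immunoblots and in stained cells. Of 11 fibroblast markers, 9 were tested, and 5 were lower and 0 higher in Nrdc+/+ than in Nrdc-/- iMEF (also 0 higher at an unadjusted limma p under 0.05 and with voom). Over all genes tested, 32.0% were lower and 30.2% higher. The 11 markers summed to 3685 to 4116 RPKM in Nrdc+/+, 5601 to 5665 in Nrdc-/- and 5990 to 6023 in Nrdc-/-WT iMEF. The sum rests on the most abundant markers. The marker median was 36.7 and 37.6 RPKM in Nrdc+/+, 315 and 322 in Nrdc-/- and 258 and 282 in Nrdc-/-WT iMEF. The largest falls in Nrdc+/+ v.s. Nrdc-/- iMEF were in Dcn (-5.92, SE 0.10) and Pdgfra (-3.44, SE 0.08). Thy1 and Lum lay under 1 RPKM in every library. The 4 epithelial markers summed to at most 0.512 RPKM, the 4 endothelial markers to at most 1.70 and the 4 leukocyte markers to at most 2.50 RPKM in any library. The endothelial sum was 1.70 and 1.34 RPKM in Nrdc+/+, 0.0681 and 0.0788 in Nrdc-/- and 0.198 and 0.0910 in Nrdc-/-WT iMEF, and the leukocyte sum 2.04 and 2.50, 0.524 and 0.176, and 1.47 and 1.25 RPKM. Both sums were thus highest in Nrdc+/+ iMEF. Cd68, the single leukocyte marker tested, was called higher in all 3 comparisons, at 2.17 in Nrdc+/+ v.s. Nrdc-/-, 1.06 in Nrdc-/-WT v.s. Nrdc-/- and 1.10 in Nrdc+/+ v.s. Nrdc-/-WT iMEF (SE 0.25 each). The part of these differences in the results below was not tested.

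All 77 core genes were expressed in every library, with no fewer than 1366 reads for a gene. Their mean levels over the 6 libraries ran from 51.8 to 2220 RPKM with a median of 364 RPKM, 8 genes reaching 1000 RPKM and 4 staying under 100. The most abundant were Rplp1, Rplp0, Rps2, Rpl32 and Rpl8. Rplp0 and Rplp1 form the stalk of the large subunit, which recruits elongation factors. Rplp1 stood at 2129 and 2512 RPKM in Nrdc+/+, 2328 and 2292 in Nrdc-/- and 2114 and 1944 in Nrdc-/-WT iMEF. Its groups overlapped in the first comparison, and it passed the test in none of the 3. The third stalk protein gene, Rplp2, was listed far lower, at 124 to 191 RPKM. RPKM depends on the annotated exon length, which was 2072 bases for Rplp2, 495 for Rplp1 and 1659 for Rplp0.

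The lowest levels belonged to Rpl24, Rps15a, Rpl35a, Rps19 and Rpl18. These 5 genes have annotated exon lengths of 6029, 6262, 3526, 4685 and 4042 bases, the sum of all exons of all their transcripts, whereas the median over the core genes was 1464 bases. RPKM divides by that length. On the length of 1 reference transcript, Rpl35a (491 bases) moved from rank 75 to rank 54 of the core genes. Rps19 (774 bases) moved from 74 to 51 and Rpl24 (677 bases) from 77 to 57. The first ranking covers all 77 core genes and the second the 76 with an annotated coding sequence. Rps15a had rank 76 in both and was the lowest in the second. A difference in RPKM between genes therefore depends on the annotated length, and no such difference was tested.

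For 2 core genes and their closest paralogs, whose ratio of levels differed between the lines as described below, the start of both coding sequences is shown. The first pair is Rpl36a, on the plus strand of mm9 at chrX:131120193-131122601, and Rpl36al, on the minus strand at chr12:70283718-70285070. The second pair is Rps27, on the minus strand at chr3:90016593-90017573, and Rps27l, on the plus strand at chr9:66793893-66797323. The first 150 bases from the start codon are given, spliced, from the GENCODE annotation of that build, and capitals in the paralog mark the bases that differ from the core gene.
Rpl36a: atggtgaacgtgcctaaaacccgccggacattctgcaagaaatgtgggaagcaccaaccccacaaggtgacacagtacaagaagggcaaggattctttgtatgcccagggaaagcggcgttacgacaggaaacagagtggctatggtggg
Rpl36al: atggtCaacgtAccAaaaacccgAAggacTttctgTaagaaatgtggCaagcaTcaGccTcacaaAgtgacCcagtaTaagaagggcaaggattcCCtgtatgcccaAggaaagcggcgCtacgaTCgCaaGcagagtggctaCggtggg
Rps27: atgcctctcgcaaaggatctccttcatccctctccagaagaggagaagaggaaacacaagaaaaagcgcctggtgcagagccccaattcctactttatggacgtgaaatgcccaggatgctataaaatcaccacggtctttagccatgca
Rps27l: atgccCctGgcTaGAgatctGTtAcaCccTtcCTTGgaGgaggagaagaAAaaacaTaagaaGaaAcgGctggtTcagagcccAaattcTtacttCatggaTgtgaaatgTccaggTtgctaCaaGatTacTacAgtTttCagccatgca
Over the full coding sequence, Rpl36a and Rpl36al differ at 39 of 321 bases (87.9% identity) and Rps27 and Rps27l at 61 of 255 bases (76.1% identity). The differences are spread along the sequence.

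To find whether ribosomal protein mRNAs depend on Nrdc, Nrdc+/+ iMEF were first compared with Nrdc-/- iMEF. Core genes were broadly lower in Nrdc+/+ iMEF. Of the 77, 43 were called lower and 1 was called higher (limma over 11598 genes, called where the Benjamini-Hochberg adjusted p was under 0.05 and the fold 1.3 or more), and 33 did not pass. Over all genes tested, 32.0% were called lower and 30.2% higher, 62.1% in either direction, so 55.8% lower among core genes, with 1 gene higher, was a shift to one side. The median log2 fold change of the core genes was -0.43, with the middle 50% between -0.75 and -0.19, against -0.01 over all genes. The large subunit genes (27 of 46 lower, median -0.45) and the small subunit genes (16 of 31 lower, 1 higher, median -0.39) gave close values. In sum, core mRNAs reached 30041 and 30834 RPKM in Nrdc+/+, 39496 and 40701 in Nrdc-/- and 40227 and 40532 in Nrdc-/-WT iMEF. All 141 genes took 4.51% and 4.54% of the reads in Nrdc+/+, 6.00% and 6.22% in Nrdc-/- and 6.33% and 6.38% in Nrdc-/-WT iMEF. The Nrdc+/+ libraries thus lay apart from the other 4, which lay close together.

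**Figure D1:**
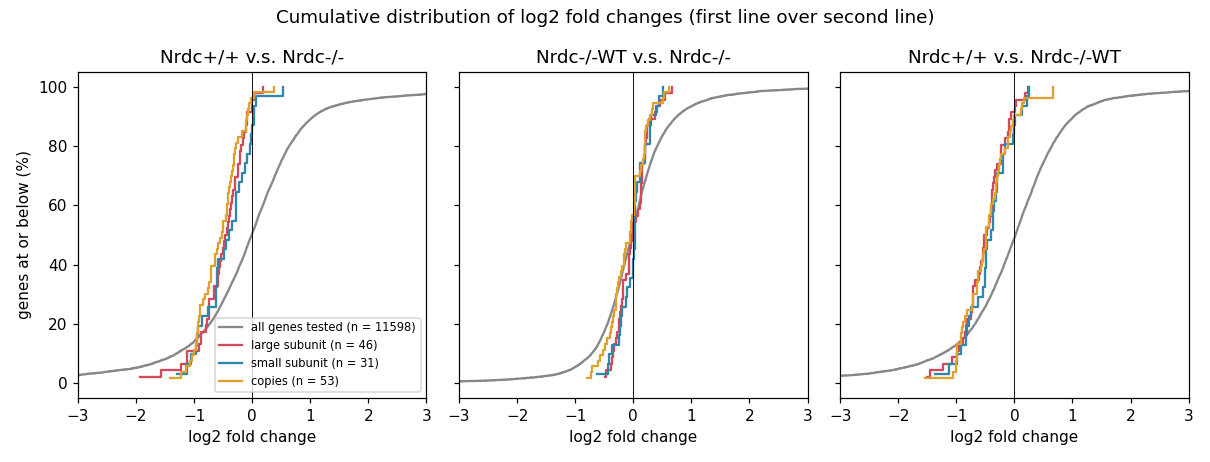
Cumulative share of genes (%) at or below each log2 fold change, by comparison, for all 11598 genes tested, 46 large subunit genes, 31 small subunit genes and 53 copies. In both comparisons with Nrdc+/+ iMEF the ribosomal curves lie left of the grey curve, with core medians of -0.43 and -0.47, and in Nrdc-/-WT v.s. Nrdc-/- they rise near 0.

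Short mRNAs other than ribosomal protein mRNAs were also lower more often than higher. Among the 674 tested genes outside the set with up to 1000 annotated bases, 46.4% were lower and 13.6% higher in Nrdc+/+ than in Nrdc-/- iMEF, and the median was -0.39. Above 1000 and up to 2000 bases the median was -0.09 over 1702 genes, and above 2000 bases it was 0.05 over 9087 genes. The core genes gave medians of -0.46, -0.37 and -0.46 in the same 3 length classes, with 24, 28 and 25 genes. Annotated length is not mRNA length for genes with long alternative exons, and the median reference transcript of a core gene had 774.5 bases. Across the 76 core genes with an annotated coding sequence, its length on a log scale and the log2 fold change had a Pearson r of 0.26 and a Spearman rho of 0.23, the 24 genes with up to 400 coding bases having a median of -0.54 and the other 52 a median of -0.40. Genes are not independent replicates, and the part of length in the result was not tested.

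Abundant genes in general were less one-sided. The 439 other genes that reached 100 RPKM on average had a median of -0.19, 37.8% of them lower and 26.4% higher. Core genes with higher levels were somewhat less lowered, with a Pearson r of 0.23 between log2 level and log2 fold change over 76 genes, which share their libraries.

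Rpl36a, a protein near the site where tRNA leaves the large subunit, showed the largest fall. It stood at 52.3 and 46.1 RPKM in Nrdc+/+, 202 and 173 in Nrdc-/- and 137 and 132 in Nrdc-/-WT iMEF. The 3 lines did not overlap, and the log2 fold change of Nrdc+/+ v.s. Nrdc-/- was -1.93 (SE 0.09, limma adjusted p = 3.8e-07). Rpl37a, a zinc-binding large subunit protein, stood at 135 and 150 RPKM in Nrdc+/+, 376 and 482 in Nrdc-/- and 441 and 372 in Nrdc-/-WT iMEF. Here only Nrdc+/+ stood apart, at -1.58 (SE 0.13).

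Rps15a, which sits on the small subunit, stood at 30.8 and 41.4 RPKM in Nrdc+/+, 85.5 and 90.5 in Nrdc-/- and 67.4 and 68.4 in Nrdc-/-WT iMEF, a log2 fold change of -1.29 (SE 0.12). Rpl38, known in mouse embryos for its part in the translation of Hox mRNAs, stood at 245 and 266, 612 and 585, and 476 and 540 RPKM in the same order of lines, at -1.23 (SE 0.08). Rps3, which lines the mRNA entry channel and also acts in DNA repair, stood at 88.1 and 84.5, 182 and 196, and 123 and 120 RPKM, at -1.13 (SE 0.06). These 3 genes were lowest in Nrdc+/+ and highest in Nrdc-/- iMEF, with no overlap between lines. Rps3 is also 1 of 3 core genes for which no near-identical copy was found in the genome.

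Rps14, whose loss is known in humans from the 5q- syndrome, was the single core gene called higher. Its levels were 288 and 391 RPKM in Nrdc+/+, 247 and 219 in Nrdc-/- and 287 and 279 in Nrdc-/-WT iMEF, at 0.53 (SE 0.13, limma adjusted p = 0.0067). The call was lost without 1 library of either line. Without Nrdc+/+ replicate 2 the log2 fold change was 0.31, under the fold threshold, and without Nrdc-/- replicate 2 it was 0.44 with an adjusted p of 0.073 (limma). In all, 7 of 77 core genes had a log2 fold change above 0. Among the other 6, Rpl39 had 0.18, Rps12 0.06, Rps26 0.04, Rps7 0.03 and Rplp1 0.00, named after their values were seen, and none of the 6 passed the test.

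**Figure D2:**
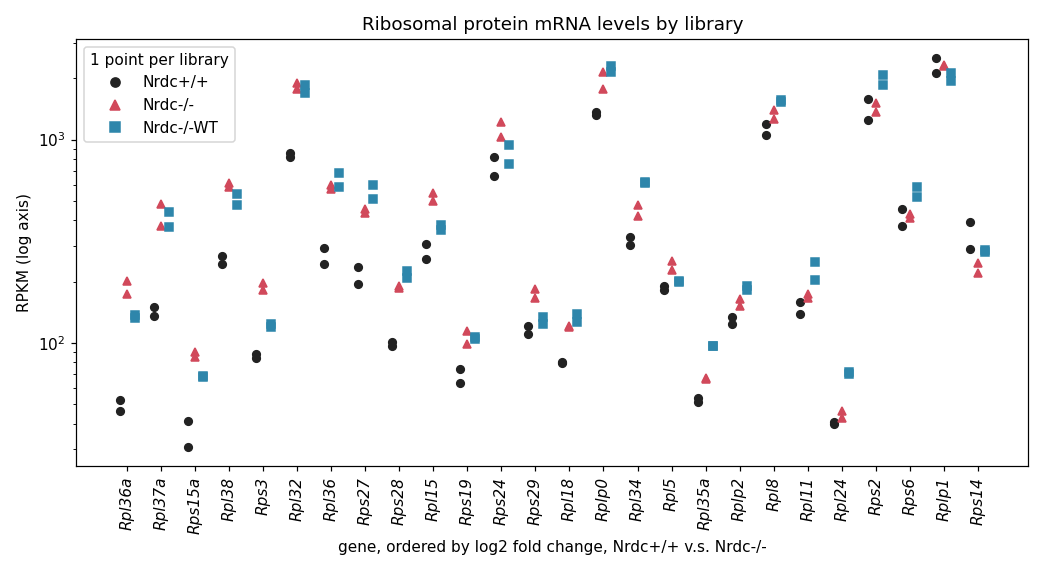
RPKM (log axis) of 26 core genes described by name, 1 point per library, ordered by the log2 fold change of Nrdc+/+ v.s. Nrdc-/- iMEF from Rpl36a (-1.93) to Rps14 (0.53). Black circles (Nrdc+/+) lie below the other 2 lines on the left side, and blue squares (Nrdc-/-WT) lie on top for Rpl34, Rpl35a, Rpl24 and Rps6.

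The effect of returning Nrdc was asked by comparing Nrdc-/-WT with Nrdc-/- iMEF. Few core genes changed, and in both directions. Of the 77, 7 were called higher and 5 lower, 9.09% and 6.49%, where 20.5% of all genes were called higher and 22.7% lower (43.2% in either direction). The median log2 fold change was 0.02, against -0.02 over all genes. Among the genes called higher were Rpl24, Rpl35a, Rpl34, Rps2, Rpl11 and Rps6. Those called lower were Rps3, Rpl15, Rpl36a, Rps29 and Rps24.

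Rpl24, mutated in the Belly spot and tail mouse, stood at 40.7 and 40.0 RPKM in Nrdc+/+, 46.0 and 42.6 in Nrdc-/- and 70.2 and 71.4 in Nrdc-/-WT iMEF. It rose by 0.67 (SE 0.06, limma adjusted p = 4.1e-05). Rpl35a, mutated in some humans with Diamond-Blackfan anaemia, stood at 51.1 and 53.6, 66.7 and 66.0, and 96.4 and 96.5 RPKM, a rise of 0.54 (SE 0.06). Both were highest in the virus line and lowest in Nrdc+/+ iMEF, so the virus line lay farther from Nrdc+/+ than Nrdc-/- did. Rpl34 stood at 301 and 331, 419 and 474, and 615 and 612 RPKM and rose by 0.46 (SE 0.08), but the rise was 0.37, under the fold threshold, without Nrdc-/- replicate 1.

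Rps6, the target of the S6 kinases downstream of mTORC1, stood at 454 and 377, 431 and 411, and 519 and 584 RPKM, a rise of 0.39 (SE 0.10). Rpl11 and Rpl5 bind 5S rRNA and, when free, the p53 regulator Mdm2, and they did not move together. Rpl11 stood at 159 and 139 RPKM in Nrdc+/+, 174 and 166 in Nrdc-/- and 204 and 251 in Nrdc-/-WT iMEF, a rise of 0.42 (SE 0.11). Rpl5 stood at 189 and 181, 251 and 227, and 201 and 200 RPKM, a log2 fold change of -0.25 (SE 0.07) that stayed under the fold threshold. The rises of Rps6 and Rpl11 were not called without either Nrdc-/- library or without Nrdc-/-WT replicate 2, with values of 0.42, 0.35 and 0.30 for Rps6 and 0.45, 0.38 and 0.27 for Rpl11. Rps2, with the highest level among small subunit genes, rose by 0.45 (SE 0.13) and was not called without either Nrdc-/- library (0.37 and 0.52) or without Nrdc-/-WT replicate 2 (0.37).

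Among the falls, Rps3 had the largest, at -0.63 (SE 0.06, limma adjusted p = 6.7e-05). Rpl15, which lies deep in the large subunit, stood at 258 and 308 RPKM in Nrdc+/+, 496 and 543 in Nrdc-/- and 360 and 380 in Nrdc-/-WT iMEF, a fall of 0.49 on the log2 scale (SE 0.10). Rps3, Rpl15 and Rpl36a lay between the other lines in Nrdc-/-WT iMEF. Rpl36a fell by 0.48 (SE 0.09), and without Nrdc-/- replicate 1 the value was -0.37, under the fold threshold. Rps29 stood at 110 and 120, 166 and 183, and 134 and 123 RPKM and fell by 0.44 (SE 0.08), with -0.37 without Nrdc-/- replicate 2 and -0.38 without Nrdc-/-WT replicate 2, again under the threshold. Rps24, mutated in some humans with Diamond-Blackfan anaemia, fell by 0.41 (SE 0.15) with an adjusted p of 0.038 (limma). It was not called without Nrdc-/- replicate 1 (-0.29), Nrdc-/- replicate 2 (-0.54) or Nrdc-/-WT replicate 1 (-0.26), nor with voom (-0.37), no trend (adjusted p = 0.066), no filter (adjusted p = 0.12) or 2 of the other scalings (-0.39 and -0.36).

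Nrdc+/+ iMEF were then compared with Nrdc-/-WT iMEF, which shares libraries with both comparisons above. Of the 77 core genes, 45 were called lower in Nrdc+/+ and 0 higher, 58.4% and 0%, where 29.9% of all genes were lower and 30.6% higher (60.4% in either direction). At an unadjusted p under 0.05 (limma), 2 core genes were higher and 59 lower, and voom on the recovered reads called 0 higher and 53 lower. Over all 11598 genes tested, 4472 were higher and 4295 lower at that unadjusted p (limma), and voom called 3263 higher and 3785 lower. The median log2 fold change was -0.47, against 0.02 over all genes, and the medians of the other genes by length class were -0.30, -0.08 and 0.06. The 5 largest falls were in Rpl37a (-1.51, SE 0.13), Rpl36a (-1.45, SE 0.09), Rps27 (-1.36, SE 0.11), Rpl36 (-1.23, SE 0.11) and Rps28 (-1.13, SE 0.06). Rps27, a zinc-finger protein of the small subunit, stood at 194 and 236 RPKM in Nrdc+/+, 433 and 456 in Nrdc-/- and 596 and 507 in Nrdc-/-WT iMEF. Rpl36 stood at 244 and 294, 571 and 598, and 582 and 683 RPKM, and Rps28 at 101 and 96.1, 185 and 189, and 226 and 207 RPKM. For all 3, Nrdc+/+ iMEF lay below both other lines.

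The remaining genes named by level or role followed the group. Rplp0 stood at 1323 and 1368 RPKM in Nrdc+/+, 1774 and 2141 in Nrdc-/- and 2293 and 2141 in Nrdc-/-WT iMEF, lower in Nrdc+/+ by 0.53 (SE 0.11) and 0.72 (SE 0.11) on the log2 scale against the other lines. Rpl32 stood at 822 and 861, 1767 and 1906, and 1864 and 1689 RPKM, with log2 fold changes of -1.12 (SE 0.09) and -1.08 (SE 0.09). Rps19, the gene most often mutated in Diamond-Blackfan anaemia, stood at 74.1 and 63.0, 98.6 and 114, and 104 and 106 RPKM, with -0.63 (SE 0.09) and -0.62 (SE 0.09). Nrdc+/+ iMEF were the lowest of the 3 lines for each of these genes. Rpl18 gave -0.58 (SE 0.06) and -0.72 (SE 0.06). Rplp2 was called only against Nrdc-/-WT iMEF, at -0.53 (SE 0.07), its value against Nrdc-/- being -0.30 (SE 0.07), and Rpl8 likewise, at -0.47 (SE 0.10) and -0.24 (SE 0.10), without a test of either difference. The call of Rpl8 was lost without Nrdc+/+ replicate 1 (-0.38).

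The paralogs were set beside their core genes, without a test of the difference between them. Of the 4 that reached 0.5 RPKM on average, 1 was lower and 0 higher in Nrdc+/+ v.s. Nrdc-/- iMEF (at an unadjusted limma p under 0.05, 2 and 0, and with voom 1 and 0). Over all genes, 32.0% were lower and 30.2% higher there. In Nrdc-/-WT v.s. Nrdc-/- iMEF, 2 paralogs were lower and 1 higher (22.7% and 20.5% of all genes). In Nrdc+/+ v.s. Nrdc-/-WT iMEF, 1 was lower and 1 higher (29.9% and 30.6%). With 4 genes, these counts give no result about the paralogs as a group. The remaining 4, Rpl10l, Rpl39l, Rpl3l and Rps4y2, were at most 0.121 RPKM on average and were not tested. Rpl36al stood at 69.3 and 74.1 RPKM in Nrdc+/+, 74.3 and 67.4 in Nrdc-/- and 58.3 and 50.7 in Nrdc-/-WT iMEF, while Rpl36a had the largest difference of the core genes in Nrdc+/+ v.s. Nrdc-/- iMEF. The ratio of Rpl36al to Rpl36a was 1.32 and 1.61 in Nrdc+/+ libraries, 0.367 and 0.389 in Nrdc-/- and 0.425 and 0.385 in Nrdc-/-WT libraries. Rps27l, a p53 target in human cells, stood at 168 and 200, 186 and 208, and 161 and 133 RPKM, and its ratio to Rps27 was 0.865 and 0.849, 0.430 and 0.457, and 0.270 and 0.263. Both ratios were highest in Nrdc+/+ iMEF without overlap, though 2 against 2 libraries cannot give an exact permutation p below 1 in 3.

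Rpl22l1 had the opposite sign to Rpl22, the core protein known for binding viral and cellular RNAs, in both comparisons with Nrdc-/-WT iMEF. It stood at 147 and 169 RPKM in Nrdc+/+, 240 and 184 in Nrdc-/- and 322 and 305 in Nrdc-/-WT iMEF, where Rpl22 stood at 148 and 140, 160 and 148, and 119 and 125 RPKM. In Nrdc-/-WT v.s. Nrdc-/- iMEF, Rpl22l1 rose by 0.58 (SE 0.12) and Rpl22 had a log2 fold change of -0.33 (SE 0.07), which stayed under the fold threshold. Against Nrdc-/- iMEF, Rpl22l1 was lower in Nrdc+/+ at -0.41 (SE 0.12), a call lost without Nrdc+/+ replicate 1 (-0.32), without Nrdc-/- replicate 1 (-0.22) and with no filter on low values (adjusted p = 0.054, limma). There Rpl22 had the same sign, at -0.10 (SE 0.07). Rpl7l1, a protein of ribosome assembly, lay between 57.0 and 70.7 RPKM in all libraries and was not called in any comparison. Its level was lower in Nrdc+/+ than in Nrdc-/- libraries without overlap, at -0.20, in the same direction as Rpl7, which stood at 236 and 227 RPKM in Nrdc+/+, 387 and 391 in Nrdc-/- and 309 and 290 in Nrdc-/-WT iMEF (-0.75, SE 0.06, in the first comparison). Rpl36al and Rps27l were called lower in Nrdc-/-WT v.s. Nrdc-/- iMEF, at -0.38 and -0.43. Both calls depended on settings. Rpl36al went under the fold threshold with each other scaling (-0.33 to -0.38), with voom (-0.33), with a pseudocount of 1 RPKM (-0.37) and without Nrdc-/-WT replicate 2 (-0.28), and it was not called without Nrdc-/- replicate 1 (-0.31). Rps27l went under it with upper quartile scaling (-0.37) and was not called with no filter (adjusted p = 0.051, limma) or without Nrdc-/- replicate 2 (-0.35) or Nrdc-/-WT replicate 2 (-0.29). Rpl36al was also called higher in Nrdc+/+ than in Nrdc-/-WT iMEF, at 0.40, which was lost with the other scalings, with voom, and without Nrdc+/+ replicate 2 (0.35) or Nrdc-/-WT replicate 2 (0.30).

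**Figure D3:**
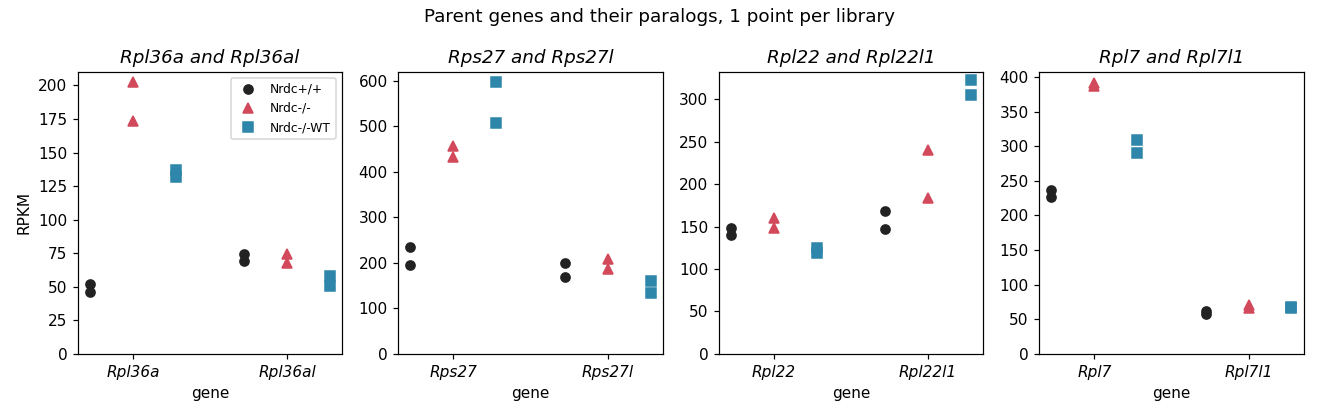
RPKM of 4 core genes (left in each panel) and their paralogs (right), 1 point per library, on axes from 0. Rpl36a and Rps27 are lowest in Nrdc+/+ iMEF, Rpl36al lies between 50.7 and 74.3 RPKM in every library, and Rpl22l1 is highest in Nrdc-/-WT iMEF at 305 and 322 RPKM.

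Near-identical copies limit how the reads of a core gene can be assigned. A search of the mm9 genome with each coding sequence found at least 1 other locus with at least 95% identity over at least 80% of its length for 73 of 76 core genes. In all there were 591 such loci, with a median of 6 per gene and 56 for Rpl21. Of them, 138 fell in listed genes, 277 in annotated pseudogenes and 171 in no annotated gene. Rpl10 and Rpl10-ps3 have the same coding sequence over all 645 bases, and Rpl10-ps3 held 35.6% as many reads as Rpl10, on annotated lengths of 728 and 2053 bases. The pair Rpl15, on the minus strand of mm9 at chr14:19100337-19103905, and Rpl15-ps2, on the plus strand at chr9:71908720-71909406, is shown because the copy was called in the same direction as the core gene in all 3 comparisons. The first 150 bases of both coding sequences are given, with capitals in the copy where it differs.
Rpl15: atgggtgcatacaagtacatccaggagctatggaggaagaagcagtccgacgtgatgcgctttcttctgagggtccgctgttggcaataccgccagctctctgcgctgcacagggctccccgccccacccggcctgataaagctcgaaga
Rpl15-ps2: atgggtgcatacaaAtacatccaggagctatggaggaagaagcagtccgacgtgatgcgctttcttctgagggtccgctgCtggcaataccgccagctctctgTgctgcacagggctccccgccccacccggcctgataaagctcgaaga
They differ at 8 of 615 bases (98.7% identity), 3 of them in the stretch shown. A read between such positions cannot be placed in one or the other, and the sources used here do not say how such reads were counted.

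The 55 copies belong to 30 core genes, and 53 were tested. Of these, 33 were lower and 0 higher in Nrdc+/+ than in Nrdc-/- iMEF (1 higher at an unadjusted limma p under 0.05 and 0 with voom, median -0.52), 8 lower and 3 higher in Nrdc-/-WT than in Nrdc-/- (median -0.05), and 29 lower and 1 higher in Nrdc+/+ than in Nrdc-/-WT iMEF (median -0.49). Over all genes the shares lower and higher were 32.0% and 30.2%, 22.7% and 20.5%, and 29.9% and 30.6% in the same order of comparisons. A copy held a median of 1.63% of the reads of its core gene and at most 66.1%. Copies and core genes with shared sequence are not separate observations. Of the 14 copies that reached 100 RPKM on average, 12, 11 and 13 had a log2 fold change within 0.25 of their core gene in the 3 comparisons in the order above, and of the 39 tested copies below that level 21, 22 and 18 did. Rpl23a-ps3, the most abundant copy, had -0.90, -0.05 and -0.85 where Rpl23a had -0.75, -0.00 and -0.75. Rps15a-ps2, named after its values were seen, was called in the direction opposite to its core gene. It stood at 15.6 and 12.4 RPKM in Nrdc+/+, 10.0 and 11.5 in Nrdc-/- and 9.19 and 8.18 in Nrdc-/-WT iMEF. Its log2 fold change was 0.67 (SE 0.12, called higher) in Nrdc+/+ v.s. Nrdc-/-WT and 0.37 (SE 0.12, not called) in Nrdc+/+ v.s. Nrdc-/- iMEF, where Rps15a had -0.92 and -1.29. Over all 141 members, of which 135 were tested, 1 was higher and 77 lower, 11 higher and 15 lower, and 2 higher and 75 lower in the 3 comparisons. The 6 untested members are the 4 low paralogs and the copies Rpl28-ps4 and Rpl30-ps6.

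**Figure D4:**
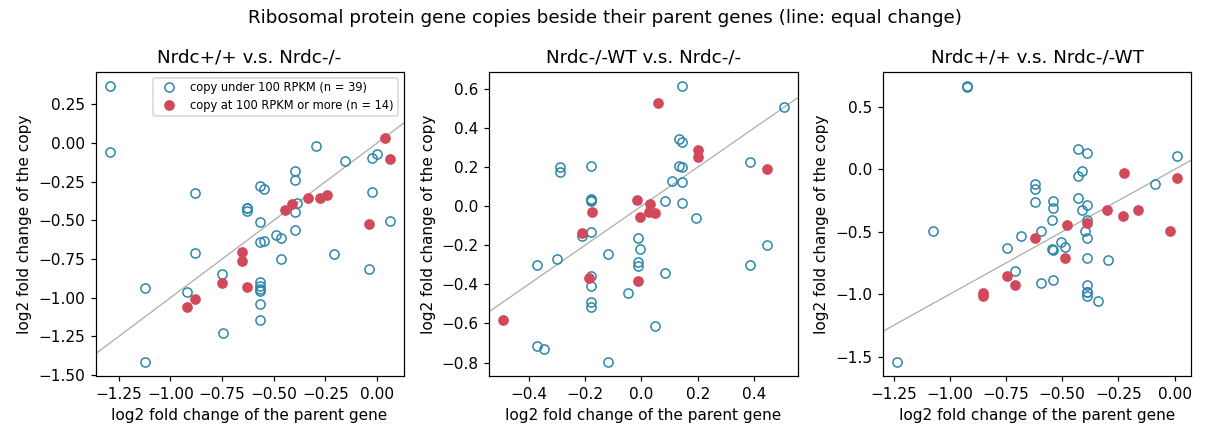
Log2 fold change of each tested copy against that of its core gene, by comparison, with a line of equal change. Filled points are the 14 copies at 100 RPKM or more, of which 12, 11 and 13 lie within 0.25 of their core gene, and open points are the other 39.

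The symbol rule leaves out some genes whose proteins belong to the ribosome. Fau encodes a ubiquitin-like protein fused to a small subunit protein. Fau stood at 527 and 435 RPKM in Nrdc+/+, 602 and 671 in Nrdc-/- and 694 and 789 in Nrdc-/-WT iMEF, with log2 fold changes of -0.41 (SE 0.11) and -0.63 (SE 0.11) in the 2 comparisons of Nrdc+/+. Gnb2l1, which encodes the small subunit scaffold Rack1, was lower in Nrdc+/+ at -1.25 (SE 0.07) and -1.22 (SE 0.07).

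Genes for building ribosomes moved opposite to the genes for their proteins. Of 36 tested assembly factors of the large subunit, 27 were higher and 3 lower in Nrdc+/+ than in Nrdc-/- iMEF, with a median log2 fold change of 0.62. Of 38 for the small subunit, 25 were higher and 1 lower, with a median of 0.66. Over all genes, 30.2% were higher and 32.0% lower. Heatr1 and Utp20, of the complex that processes the first rRNA precursor, had 1.68 (SE 0.08) and 1.43 (SE 0.07), and Mdn1, an ATPase that remodels the large subunit precursor, had 1.25 (SE 0.09). Among 13 snoRNP proteins and nucleolar chaperones, 9 were higher and 0 lower (1 lower at an unadjusted limma p under 0.05 and 0 with voom, median 0.55), with Naf1 at 1.64 and Tcof1 at 1.39. Of 16 genes of RNA polymerase I and rRNA transcription, 7 were higher and 2 lower (median 0.25), with Ddx21 at 1.28 (SE 0.07) and the initiation factor gene Rrn3 at -0.69 (SE 0.08).

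Assembly factors and ribosomal proteins also lay on opposite sides against the virus line. In Nrdc+/+ v.s. Nrdc-/-WT iMEF, 29 of 36 and 30 of 38 assembly factors were higher, with medians of 0.66 and 0.79, where 30.6% of all genes were higher. In Nrdc-/-WT v.s. Nrdc-/- iMEF, 2 and 8 of the 36 were higher and lower, and 2 and 14 of the 38, with medians of -0.08 and -0.31. Over all genes 20.5% were higher and 22.7% lower, so the share of large subunit factors called lower was near that of all genes. Rrp12, an export factor of the small subunit, fell by 0.93 (SE 0.09) and Pno1 by 0.92 (SE 0.06) there on the log2 scale. Assembly factor mRNAs are longer, with median annotated lengths of 2767 bases for the large subunit list and 3821 for the small subunit list, and 0 and 1 of them had up to 1000 bases.

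Other parts of the translation machinery had calls in both directions. Their counts are read against all genes, of which 30.2% were higher and 32.0% lower in Nrdc+/+ v.s. Nrdc-/-, 20.5% and 22.7% in Nrdc-/-WT v.s. Nrdc-/-, and 30.6% and 29.9% in Nrdc+/+ v.s. Nrdc-/-WT iMEF. The 76 tested mitochondrial ribosomal protein genes had 29 lower and 11 higher in Nrdc+/+ v.s. Nrdc-/- iMEF (median -0.26), 13 lower and 7 higher in Nrdc-/-WT v.s. Nrdc-/- (median -0.05), and 25 lower and 11 higher in Nrdc+/+ v.s. Nrdc-/-WT iMEF (median -0.10). Mrps28 had -1.36 and Mrps27 1.06 in the first. Of 19 other mRNAs with a 5-prime TOP motif, 3 were higher and 6 lower in Nrdc+/+ v.s. Nrdc-/- (median 0.09), the share lower being near that of all genes, with Nap1l1, a histone chaperone, at 1.13 (SE 0.08) and Eif3f, an initiation factor subunit, at -0.74 (SE 0.09). In the other 2 comparisons the counts were 3 and 0 (3 lower at an unadjusted limma p under 0.05 and 0 with voom, median 0.00), and 3 and 5 (median -0.12). Of 10 tested elongation and termination factors, 2 were higher and 3 lower (median -0.12), then 0 and 4 (2 higher at an unadjusted limma p under 0.05 and 0 with voom, median -0.27), and 2 and 1 (median 0.03), with the release factor Etf1 at 0.93 (SE 0.06) in the first. The 15 genes of TOP mRNA control and mTORC1 had 3 higher and 3 lower (median 0.11), 1 and 2 (median -0.08), and 5 and 1 (median 0.20). Mtor itself had 0.90 (SE 0.10) and Larp1, a TOP mRNA-binding protein, -0.58 (SE 0.06) in Nrdc+/+ v.s. Nrdc-/- iMEF. The snoRNP and chaperone list had 0 higher and 2 lower (0 higher at an unadjusted limma p under 0.05 and with voom, median -0.16) in Nrdc-/-WT v.s. Nrdc-/- and 9 higher and 0 lower (1 and 0 lower, median 0.71) in Nrdc+/+ v.s. Nrdc-/-WT iMEF, and the RNA polymerase I list 2 and 2 (median -0.12) and 6 and 1 (median 0.28).

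**Figure D5:**
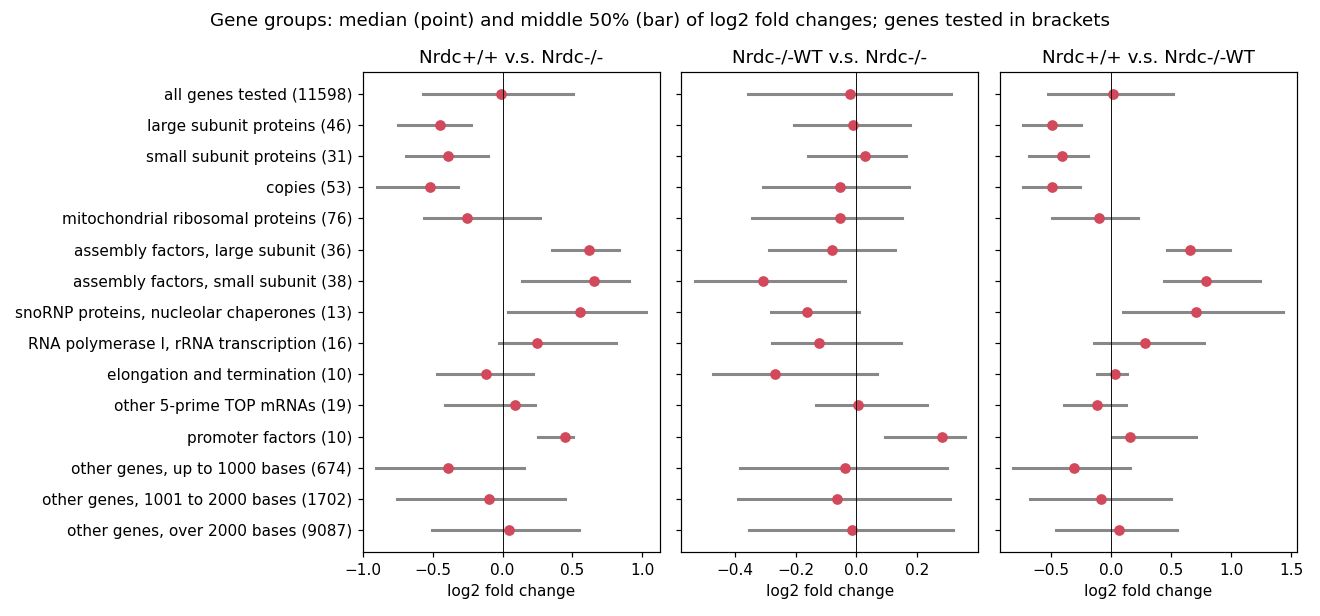
Median (point) and middle 50% (bar) of the log2 fold changes of each gene group by comparison, with the number of genes tested in brackets. In both comparisons of Nrdc+/+ iMEF, the ribosomal proteins lie left of 0 (core medians -0.43 and -0.47), assembly factors right of it (0.62 to 0.79) and other genes of up to 1000 bases left of it (-0.39 and -0.30).

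Factors known to bind ribosomal protein gene promoters were also measured. Of 10 tested, 6 were higher and 0 lower in Nrdc+/+ v.s. Nrdc-/- iMEF (0 lower at an unadjusted limma p under 0.05 and with voom, median 0.45), 2 and 2 in Nrdc-/-WT v.s. Nrdc-/- (median 0.28), and 4 and 0 in Nrdc+/+ v.s. Nrdc-/-WT iMEF (1 and 0 lower, median 0.16). Over all genes the shares higher and lower were 30.2% and 32.0%, 20.5% and 22.7%, and 30.6% and 29.9% in the same order. The shares of these factors in the second comparison were near those of all genes. Myc stood at 59.6 and 59.6 RPKM in Nrdc+/+, 24.7 and 22.8 in Nrdc-/- and 26.5 and 25.7 in Nrdc-/-WT iMEF, and Yy1 at 43.0 and 48.4, 21.5 and 21.7, and 26.7 and 26.2 RPKM. Both were highest in the line in which ribosomal protein mRNAs were lowest.

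Promoter sequences were taken from RefSeq (GRCm38.p6, another build than the mm9 coordinates above), which gave 66 windows for 56 of the 77 core genes, from 250 bases before to 50 after a transcript start. The letters CCGGAAG, the core of an ETS factor motif, occurred on either strand in 24 of 66 windows (36.4%) and in 8.86% of all 32851 windows. The letters CTTTCC, a run of pyrimidines, occurred on either strand in 33 of 66 windows and in 26.6% of all windows. Matches were counted anywhere in a window and on both strands, so they do not mark a TOP start. Windows of the same gene can overlap and hold the same match, as for Rpl35a. The motifs can share letters, and 14 core windows held both, but no match of one overlapped a match of the other in these windows. Core genes with CCGGAAG had a median log2 fold change of -0.46 in Nrdc+/+ v.s. Nrdc-/- iMEF (23 genes) and those without it -0.43 (33 genes). With CTTTCC the medians were -0.55 (29 genes) and without it -0.40 (27 genes). Starts of 3 genes that fell in Nrdc+/+ iMEF are shown, with 60 bases before the start and 20 from it on, and with both motifs in capitals. They are Rpl38 (plus strand, chr11:114668520-114668599), which holds both, Rps27 (minus strand, chr3:90213629-90213708), which holds 1, and Rpl36a (plus strand, chrX:134585594-134585673), with the largest fall, which holds neither in this stretch.
Rpl38: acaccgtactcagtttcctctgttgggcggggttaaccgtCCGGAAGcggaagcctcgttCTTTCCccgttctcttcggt
Rps27: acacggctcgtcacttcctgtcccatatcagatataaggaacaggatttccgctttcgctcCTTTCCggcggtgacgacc
Rpl36a: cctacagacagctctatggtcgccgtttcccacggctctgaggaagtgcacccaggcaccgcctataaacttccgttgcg
A match is a description of the letters and no proof of a bound site.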

How the data were processed

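The 6 RNA-seq libraries come from 3 lines, with 2 libraries per line. According to the methods, the authors aligned reads to mm9 with STAR and then Bowtie2, counted them with featureCounts, calculated RPKM with edgeR and deposited log2 values (no tool versions are stated). The deposited log2 values include an added 0.912 to 1.12 reads per library, which was subtracted. The tests had been planned for RPKM, another unit than the log2 values found, and were kept after turning back the logs. Reads recovered from RPKM were whole within 0.05 for 100% of the low values.

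The 11598 genes averaging 0.5 RPKM or more were fitted in R 4.3.3 with limma 3.58.1 (lmFit, eBayes with trend) on log2(RPKM + 0.25) over the 6 libraries, with Benjamini-Hochberg adjustment. Fold changes are on that scale. Near-identical copies were found with BLAST 2.17.0+ in the mm9 genome. The members, gene lists and 20 alternatives (pseudocounts, filters, scalings, thresholds, voom, a replicate block, each library left out, and which members count) were chosen with earlier results of these data known. Named genes were the 5 most and 5 least abundant core genes, the 5 largest called rises and falls per comparison, paralogs of at least 0.5 RPKM, and Rplp0, Rplp1, Rplp2, Rps6, Rpl5 and Rpl11, with up to 4 genes per list. The values of some genes that meet this rule are not reported here. The code was tested on simulated data. The 2 libraries of each line differed by more than sampling noise. Strand is not stated, so overlapping genes cannot be told apart.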

Additional observations from a re-analysis of the deposited data

How the results depend on the processing

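The fall of ribosomal protein mRNAs in Nrdc+/+ iMEF kept its direction under the 20 alternatives, with medians over the members of -0.50 to -0.42 in Nrdc+/+ v.s. Nrdc-/- and -0.53 to -0.35 in Nrdc+/+ v.s. Nrdc-/-WT iMEF. Counts below are over all 135 tested members. Counts over all genes follow only for voom and the scalings, so the other counts compare settings and not members with all genes. With no minimum fold, 3 were higher in Nrdc+/+ v.s. Nrdc-/-, 20 higher and 32 lower in Nrdc-/-WT v.s. Nrdc-/-, and 6 higher in Nrdc+/+ v.s. Nrdc-/-WT iMEF. With core genes alone there were 43 lower in the first, 7 higher and 5 lower in the second (median 0.016), and 0 higher and 45 lower in the third. With only the 15 tested members that lack a near-identical copy, there were 0 higher and 5 lower, 0 higher and 4 lower, and 0 higher and 5 lower, with medians of -0.16 in the second and -0.35 in the third. The last 2 settings count fewer genes, and the setting with no minimum fold has a lower threshold. Why the medians moved in the last 2 settings was not tested. Voom gave 7 lower and a median of 0.033 in the second, and 1 higher and a median of -0.53 in the third, and the cause was not tested. Over all 11598 genes, voom called 2409 lower in the second and 3263 higher in the third. In the third, the other 3 scalings gave 1 higher each, where they called 3236 to 3436 of all genes higher. Upper quartile scaling gave medians of 0.042 in the second and -0.53 in the third, scaling to reads outside the ribosomal protein genes -0.50 in the third, and a pseudocount of 1 or no filter -0.43 in the third.

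Leaving out each library in turn gave 1 to 3 higher and 64 to 77 lower (median -0.50 to -0.44) in Nrdc+/+ v.s. Nrdc-/-, 6 to 12 higher and 9 to 17 lower (median -0.066 to 0.026) in Nrdc-/-WT v.s. Nrdc-/-, and 1 to 4 higher and 69 to 76 lower (median -0.51 to -0.45) in Nrdc+/+ v.s. Nrdc-/-WT iMEF. The lowest counts of the second, 6 and 9, came without Nrdc-/- replicate 1 and without Nrdc-/- replicate 2. The 3 higher in the first came without Nrdc+/+ replicate 2. In the third, 4 were higher without Nrdc+/+ replicate 1 or Nrdc-/-WT replicate 1, and 1 without Nrdc+/+ replicate 2 or Nrdc-/-WT replicate 2.

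The log2 ratio of the share of reads in these genes was -0.43, 0.06 and -0.49 in the 3 comparisons, and with members lacking a near-identical copy it was -0.49, -0.036 (the other direction) and -0.45. Leaving out 1 library gave -0.46 to -0.41, 0.032 to 0.083 and -0.50 to -0.48. For the 31 named genes, 1601 of 1674 single values kept their call, 53 lost it, 35 of them when 1 library was left out, 20 gained one and 0 changed direction. Replicate numbers did not pair the libraries (correlations of deviations of -0.03, 0.01 and -0.10), and with a replicate block 77, 15 and 75 members were lower and 1, 11 and 2 higher, as without it.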
